A study of Montastraea cavernosa with 311 samples.

Results

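Ribosomal protein L6 of the coral host is isogroup Mcavernosa17045, a cluster of transcripts that share the name ribosomal protein L6 in the deposited lookup table. It is 1 of 17901 host isogroups in a table that also holds 13375 isogroups assigned to its algae, and it was chosen by its level: over the libraries of natural colonies it has the highest median percent of host counts of all host isogroups. That level is therefore given as a description with no test. The rule of choice did not use its differences between depths, sites, arms and times, and these were tested. The choice was made with earlier results of these data known.

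Tags from the 3' ends of messengers were counted in libraries of Montastraea cavernosa, a stony coral of the Gulf of Mexico and Belize, together with its Cladocopium symbiont. Natural colonies gave 119 libraries from mesophotic depth, where little light reaches, and 146 from shallow depth. The 4 sites carry the codes WFGB, EFGB, PRTER and CBC. Another 46 libraries came from a transplant experiment at WFGB and EFGB, whose arms were transplants, controls kept mesophotic and controls kept shallow, sampled at times labelled 6 and 12 with no unit. Title tags shared with 26 natural libraries were read as the same colonies and gave each arm a baseline, and the baselines of the transplants carried the mesophotic label. All libraries hold tags of host and symbiont together. The labels used here give site, depth, arm and time, with no genotype, age or tissue layer. In such mixed samples, fewer cells of a type and less RNA per cell cannot be told apart.

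Ribosomal protein L6 is a protein of the large ribosomal subunit. A ribosome holds most of its proteins in equal numbers, and in growing animal cells the messengers of these proteins are among the most abundant and are usually translated together, under control of nutrients and growth signals. The lookup table gives this name to 3 isogroups, and the 2 that belong to the symbiont are absent from the deposited counts.

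Host counts per library ranged from 2251 to 1145508, with a median of 126640. Tests used libraries with at least 20000 host counts, and 13 libraries fell under that minimum. The experiment kept 69 libraries, baselines included. CBC and PRTER libraries had barcode runs of their own. At WFGB and EFGB the title date X-14 is found on shallow libraries alone, 22 and 26 of them. Other titles there and at PRTER are codes that give no date, called coded titles here. No 2 of the 4528 library pairs compared within groups held identical counts. The libraries are separate samples of a group by their labels, and the spread between them is the error given here.

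Every library held L6 tags, from 26 to 237853 of them. The L6 share of host counts had a median of 3.44%, and ranged from 0.342% in WFGB transplant replicate 1 at time 6 (95% Wilson interval 0.293% to 0.40%, counting error alone) to 44.8% in PRTER mesophotic replicate 38 (44.69% to 44.96%). The libraries next to these were 0.442% and 0.551% in WFGB mesophotic replicates 13 and 12, and 28.5% and 25.8% in PRTER mesophotic replicate 13 and PRTER shallow replicate 18. L6 lay above 10% in 27 libraries and under 1% in 12. In the library at 44.8%, L6 had 9.23 times the counts of the next host isogroup, and in the library at 0.342% it stood at rank 52.

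L6 was the most abundant host isogroup in 37.3% of libraries, had a median rank of 2 and stood below rank 20 in 3. In all, 22 different isogroups led at least 1 library, so the highest median did not make L6 the leader everywhere. Mcavernosa33295, which has no name, led 60 libraries, and Mcavernosa18854, named sea anemone cytotoxic protein for the pore-forming toxins of anemones, led 47. Over natural libraries the L6 median was 3.32% and its share was 2.16 times that of the isogroup with the next median, Mcavernosa26831 (1.53%), named for the transcription factor C/EBP alpha. The toxin isogroup followed at 1.44% and cytochrome c oxidase subunit I, Mcavernosa30572, at 0.969%. Cytosolic phospholipase A2 (Mcavernosa22551), which frees fatty acids from membranes, had 0.946%, Mcavernosa33295 had 0.890%, and an isogroup named only ribosomal protein (Mcavernosa09208) had 0.832%. Interferon regulatory factor 2 binding protein (Mcavernosa07301), Mcavernosa22970 and Mcavernosa17048, both without a name, completed the first 10 at 0.816%, 0.717% and 0.663%. A 3' tag method counts transcripts and not bases, so these shares were compared without a correction for length.

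Among cytosolic ribosomal proteins with a number in their name L6 stood apart. The list, matched by such names, held 79 isogroups. It left out 12 isogroups named ribosomal protein with no number, which summed to a median of 2.41% of host counts in natural libraries. Of these, Mcavernosa09208 (0.832%) and Mcavernosa01208 (0.627%) had higher medians than any listed member but L6, and Mcavernosa01208 led 15 libraries. L6 alone carried a median of 49.3% of the list's counts in natural libraries, with a range from 15.4% to 97.5%. L6 was the highest member of the list in all natural libraries but 1, a WFGB mesophotic one, with a median of 5.48 times the counts of the next member. By median percent of host counts the next members were L17 (Mcavernosa14442) at 0.341%, S9 (Mcavernosa23873) at 0.268%, S27A (Mcavernosa26739), which is made fused to ubiquitin, at 0.148%, S3a (Mcavernosa21668) at 0.131% and L36 (Mcavernosa06475) at 0.131%. L6 thus had 9.73 times the median share of L17 and 22.4 times that of S27A.

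Most other single abundant isogroups spread more than L6 within groups. Of the 14 others among the 15 with the highest medians, 8 to 12 had a larger SD of log2 percent than L6 within each of the 8 groups of a site and depth, and of the 5 ribosomal proteins next to L6, 3 to 5 had. Low counts widen this SD, and L6 was chosen for its high level. Several of the others, such as Mcavernosa33295 and S9, were at 0 in some libraries. The comparison therefore cannot tell a steadier isogroup from a more abundant one. A sum over many isogroups varies less than a single one by its construction, so the sum of the other 78 cytosolic members is given for its level. In the natural libraries with enough counts their sum had a median of 3.37% of host counts, and L6 alone exceeded it in 129 libraries (50.99%). The SD of log2 L6 values ran from 0.70 to 1.21 over the groups. Within the mesophotic libraries of PRTER the highest L6 share was 69.6 times the lowest, in PRTER shallow libraries 14.1 times, and at WFGB 13.3 times in mesophotic and 7.41 times in shallow libraries. The medians of the sum lay between 3.13% in PRTER mesophotic and 4.35% in EFGB mesophotic libraries, and those of L6 between 1.90% in WFGB shallow and 6.56% in CBC shallow libraries.

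**Figure D1:**
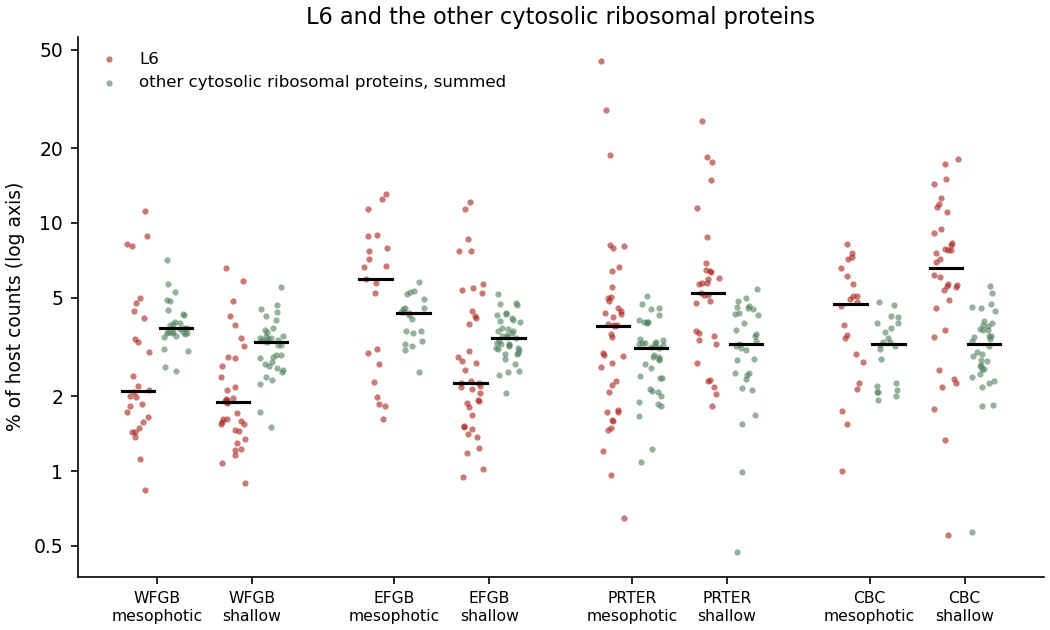
L6 (red) and the sum of the other 78 numbered cytosolic ribosomal proteins (green) as percent of host counts, on a log axis. Points are natural libraries with at least 20000 host counts, by site and depth, and bars are medians. The medians of the sum lie between 3.13% and 4.35% in every group, and L6 spreads from 0.554% to 44.8%.

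The L6 share was higher in libraries with more host counts. In the 78 libraries with 20000 to 50000 host counts the median L6 share was 1.75%, and L6 led 6.41% of them. From 50000 to 100000 counts the median was 2.11%, from 100000 to 200000 it was 4.48%, from 200000 to 400000 it was 5.82%, and in the 42 libraries with 400000 or more it was 6.46%, where L6 led 69.0%. The 13 libraries under 20000 counts had a median of 1.16% and none was led by L6.

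The same relation held within groups that share a site and a depth. Spearman's rho of the L6 share with the host total was 0.89 in WFGB mesophotic (n = 28), 0.81 in EFGB mesophotic (n = 21), 0.63 in PRTER mesophotic (n = 41) and 0.50 in CBC mesophotic libraries (n = 22). In shallow libraries it was 0.30 at WFGB (n = 35), 0.74 at EFGB (n = 39), 0.60 at PRTER (n = 31) and 0.55 at CBC (n = 36). By permutation, 7 of the 8 passed after adjustment over 24 correlations, with adjusted p between 4.8e-05 and 0.0296, and WFGB shallow did not (adjusted p = 0.0961). Pearson's r on log2 values was 0.86, 0.90, 0.67 and 0.62 in the 4 mesophotic groups and 0.40, 0.79, 0.64 and 0.67 in the 4 shallow groups, in the same order of sites, all with adjusted p of 0.0237 or less. Without the 2 libraries farthest from the median host total, r fell to 0.32 in CBC mesophotic and to 0.14 in WFGB shallow libraries, where the relation rests on those libraries, and stayed at 0.53 or above in the other 6 groups. With TMM scaling r without those libraries was 0.59 in CBC mesophotic and 0.51 in WFGB shallow libraries, so that it did not rest on them at that scaling. Within barcode runs, an inferred library batch, rho was positive in 15 of 15 sets of a group and run, from 0.15 to 1.00.

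**Figure D2:**
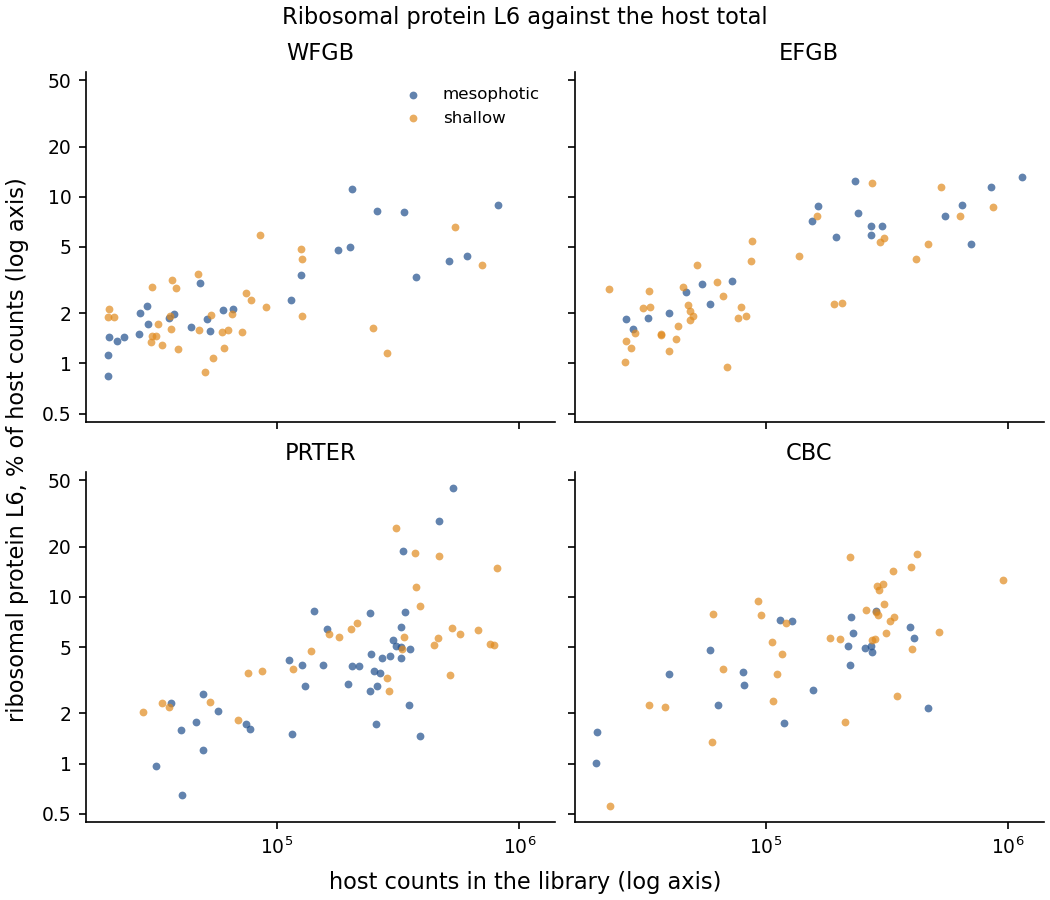
L6 as percent of host counts against the host counts of the library, both on log axes, for natural libraries at each site; blue points are mesophotic and orange points shallow. At all 4 sites libraries with few host counts sit low and those with many sit high, with the widest spread at PRTER.

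Few host isogroups followed the host total as L6 did. Averaged over the 8 groups, rho with the host total was 0.63 for L6, and 1 of the 1438 isogroups detected in at least 50% of natural libraries had a higher value. The median over these isogroups was -0.38 and 189 were positive. With the number of host isogroups detected in a library, L6 had the lowest mean rho of all, -0.51, against a median of 0.31. Among 42 other cytosolic ribosomal proteins in that set the median rho with the host total was -0.088, and 15 were positive. Host total, number of detected isogroups and L6 share moved together across libraries, and fits with the first 2 as covariates are given with the comparisons. L6 also tended to be lower where the symbiont gave more of the counts, with rho from -0.57 in WFGB mesophotic to 0.30 in PRTER mesophotic libraries. Only WFGB mesophotic, EFGB mesophotic and CBC shallow libraries passed (adjusted permutation p = 0.00348, 0.0314 and 0.00168), and rho was -0.075 in WFGB shallow ones. The symbiont value is taken relative to the host counts, so this relation is not separate from that with the host total.

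By likeness to L6, ranked by the mean rho over the 8 groups, the nearest isogroup was malate dehydrogenase (Mcavernosa19235), an enzyme of the citric acid cycle, at 0.66 with a range over groups from 0.44 to 0.79. The unnamed isogroups Mcavernosa22970, Mcavernosa08053, Mcavernosa07449 and Mcavernosa06527 followed at 0.58, 0.57, 0.56 and 0.56. Mean rho with the host total was 0.58 for malate dehydrogenase and 0.67 for Mcavernosa08053, so that the like isogroups also followed the host total. The most unlike were Mcavernosa00937 without a name at -0.71, interferon regulatory factor 4 (Mcavernosa07768), named for an immune transcription factor, at -0.69, and Mcavernosa08903, named for a phosphatase, at -0.68. Other ribosomal proteins were not close to L6: over 42 of them the median of the mean rho was -0.067, from -0.56 to 0.49, and 16 were positive. S8 of the small subunit (Mcavernosa14923) was the nearest of them at 0.49.

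Natural colonies from mesophotic and shallow depth did not differ in one direction over the sites. At WFGB the L6 share had a median of 2.11% in 28 mesophotic libraries (0.841% to 11.1%), against 1.90% in 35 shallow libraries (0.892% to 6.60%). At EFGB the median was 5.92% in 21 mesophotic libraries (1.61% to 13.1%), against 2.27% in 39 shallow ones (0.949% to 12.1%). At PRTER it was 3.85% in 41 mesophotic libraries (0.644% to 44.8%), against 5.23% in 31 shallow ones (1.82% to 25.8%). At CBC it was 4.71% in 22 mesophotic libraries (1.00% to 8.26%), against 6.56% in 36 shallow ones (0.554% to 18.1%). Mesophotic medians were thus above shallow ones at WFGB and EFGB and below them at PRTER and CBC, and the ranges of the depths overlapped at all 4 sites.

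**Figure D3:**
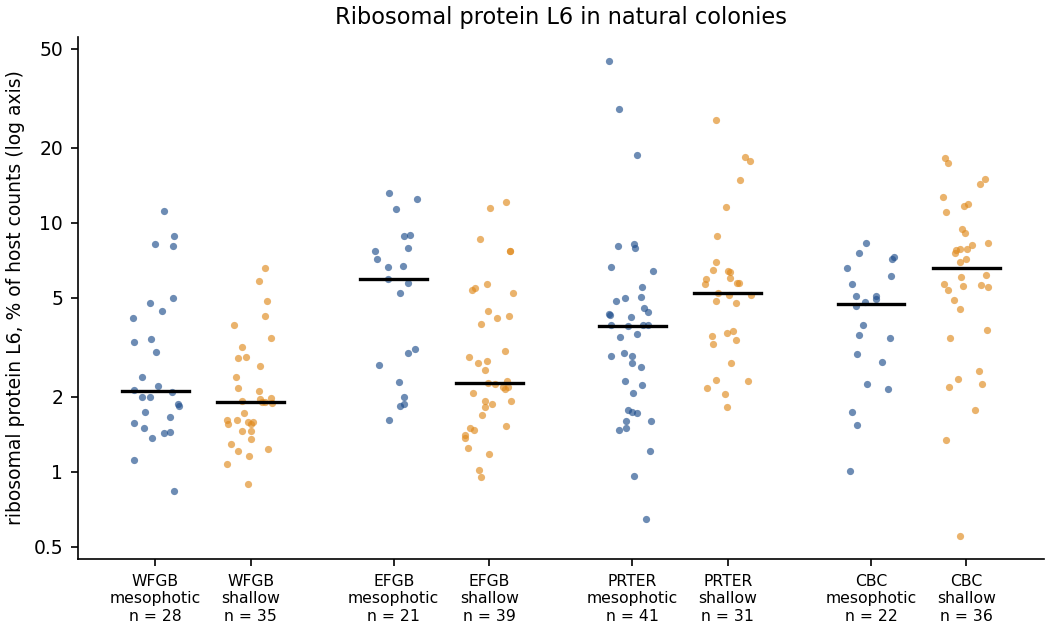
L6 as percent of host counts, on a log axis, in each natural library with at least 20000 host counts, by site and depth, with mesophotic libraries in blue and shallow ones in orange; bars are medians. EFGB shows the widest gap between depth medians, 5.92% in mesophotic against 2.27% in shallow libraries.

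On the log2 scale of the share, the mesophotic minus shallow difference averaged over sites was 0.017 ± 0.128 (SE; permutation p = 0.896). At EFGB it was 0.83 ± 0.26 and passed the test, with an adjusted p of 0.0144 over 5 permutation tests. At WFGB it was 0.37 ± 0.21 (adjusted permutation p = 0.110), at PRTER -0.56 ± 0.26 and at CBC -0.57 ± 0.27 (adjusted permutation p = 0.0693 each). The depth differences differed between sites (permutation F = 7.30, p = 8e-05).

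The EFGB difference depended on which libraries were set against each other. EFGB mesophotic libraries had a median of 194521 host counts, against 62803 in EFGB shallow ones, and with the host total as a covariate the difference was 0.35 ± 0.15 (adjusted permutation p = 0.118). Adjusting instead for how many isogroups a library detected gave 0.028 ± 0.17. Without the X-14 libraries it was 0.30 ± 0.32 at EFGB and -0.16 ± 0.30 at WFGB, and the test of depth by site gave F = 1.74 (p = 0.158). Within barcode runs 5, 6 and 7 the EFGB difference was 0.050, 1.49 and 0.36 (exact permutation p = 0.910, 0.00699 and 0.552). Within title groups it was -0.40 among V-16 libraries (exact permutation p = 0.413) and 1.07 among libraries with coded titles (p = 0.0533, exact permutation). At WFGB the difference was 0.23, 0.00012 and 0.43 within runs 4, 5 and 6, and -0.33 among coded titles. At PRTER it was -0.58 and -0.55 within runs 2 and 3, -1.24 among VIII-13 libraries and 0.067 among coded ones. CBC libraries all carry 1 title date.

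edgeR's quasi-likelihood test over all host isogroups called L6 at WFGB and CBC and not at EFGB. For the mean over sites L6 had a log2 fold change of 0.033 ± 0.20 (SE, adjusted p = 0.955), in a comparison that called 15.9% of the 3703 isogroups tested. At WFGB L6 was higher in mesophotic libraries, 1.52 ± 0.40 (adjusted p = 0.0158), where 2.75% of isogroups were called, and at CBC it was lower, -1.46 ± 0.45 (adjusted p = 0.00811), where 28.3% were called. At EFGB it was 0.72 ± 0.42 (adjusted p = 0.283, 8.75% called) and at PRTER -0.65 ± 0.37 (adjusted p = 0.220, 20.4% called). The test of depth by site called L6 (F = 10.2, adjusted p = 2.69e-05) together with 43.2% of isogroups. The signs at the 4 sites were those of the shares. The WFGB value was 0.27 with RLE scaling, 0.15 with the host total as a covariate and 0.46 without X-14 libraries, and the CBC value was -0.65, -0.34 and -0.97, none of them past the threshold. The median log2 difference of all isogroups tested was 0.045 at WFGB and -0.26 at CBC with TMM scaling, and -0.14 and 0.075 with RLE scaling.

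**Figure D4:**
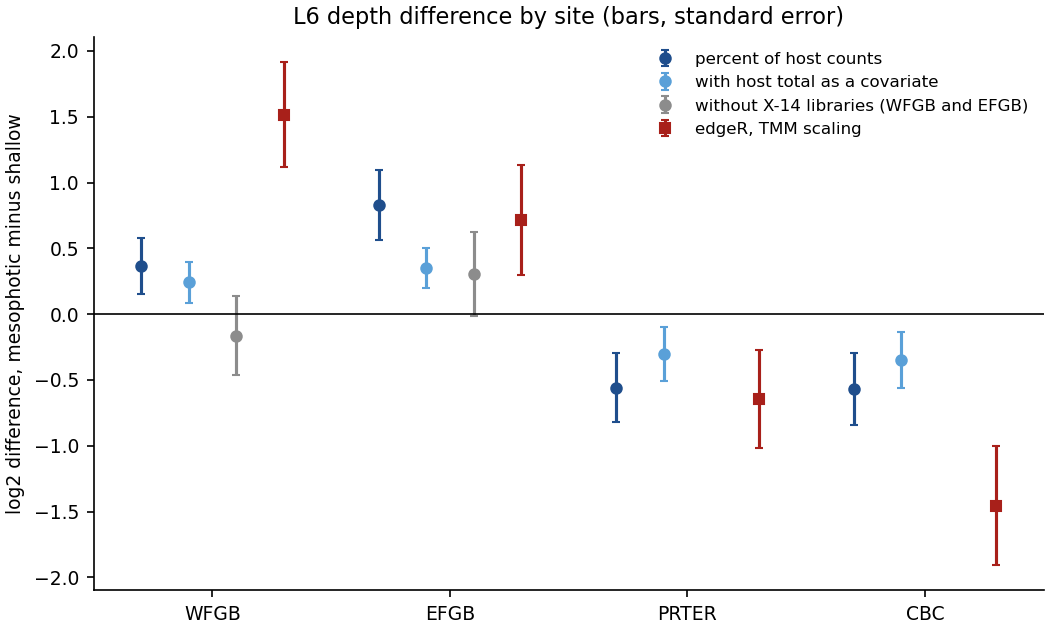
Log2 difference in L6 between mesophotic and shallow natural libraries at each site, from the share of host counts (dark blue), the same with the host total as a covariate (light blue), the same without X-14 libraries at WFGB and EFGB (grey) and edgeR with TMM scaling (red squares); bars are standard errors. Every value at PRTER and CBC lies below 0, and at EFGB the covariate lowers the difference to 0.35.

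How many of the other cytosolic ribosomal proteins passed the depth tests depended on the tool. Of the 78, 52 were abundant enough for the edgeR test, and these values are read against the shares of all isogroups called. At WFGB 2 were higher in mesophotic libraries and 0 lower, with a median log2 difference of 0.83 against 0.045 for all isogroups tested: L17 (1.28 ± 0.36, adjusted p = 0.0251) and S27A (1.49 ± 0.42, adjusted p = 0.0280). At EFGB edgeR called L38 alone, lower at -4.50 ± 1.20 (adjusted p = 0.00679), and the median was 0.40 against -0.24. At PRTER 1 was higher and 6 were lower, with a median of -0.58 against -0.073: L21 was higher (3.45 ± 0.97, adjusted p = 0.00426) and L13A had the smallest p of those that were lower (-3.99 ± 0.85, adjusted p = 9.9e-05). At CBC 1 was higher and 7 were lower, with a median of -0.42 against -0.26: L22 was higher (2.51 ± 0.97, adjusted p = 0.0387) and L11 lower (-6.25 ± 1.33, adjusted p = 8.6e-05). The list medians thus had the sign of the L6 difference at all 4 sites, above 0 at WFGB and EFGB and below 0 at PRTER and CBC. For the mean over sites the list median was 0.043, against -0.087 for all isogroups tested, and edgeR called 0 of the 52, with 6 at an unadjusted p under 0.05, where 28.3% of all isogroups had one. DESeq2 called 3 of the 52 for that mean (15.4% of all) and limma 0 (0.864% of all). By site DESeq2 called more of the 52 than edgeR, 19 at WFGB (10.9% of all), 10 at EFGB (15.1%), 14 at PRTER (20.6%) and 17 at CBC (30.7%). limma called 0 at WFGB (0.378% of all), 4 at EFGB (20.4%), 0 at PRTER (1.05%) and 1 at CBC (0.378%).

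Levels of other translation genes by depth were given by the same edgeR fit. Of 28 translation factors tested 0 were higher and 0 lower in mesophotic libraries at WFGB (2.75% of all isogroups called), 0 higher and 2 lower at EFGB (8.75%), 2 higher and 2 lower at PRTER (20.4%) and 3 higher and 3 lower at CBC (28.3%). The WFGB count of 0 had 1 member at an unadjusted p under 0.05. DESeq2 called 4, 7, 3 and 9 of the 28 at the 4 sites in that order, and limma 0, 7, 0 and 0. Of 15 ribosome assembly isogroups edgeR called 0 at WFGB (3 at an unadjusted p under 0.05, 3 by DESeq2 and 0 by limma), 2 lower at EFGB, 3 higher and 2 lower at PRTER, and 1 lower at CBC. Of 3 mitochondrial ribosomal proteins tested, which serve the separate ribosomes of that organelle, 1 was higher at WFGB, 1 higher and 1 lower at EFGB, and 1 lower at CBC by edgeR. At PRTER edgeR, DESeq2 and limma called 0 of the 3, and 0 had an unadjusted p under 0.05.

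Summed marker lists of other cell types were set beside the depth groups. Over all natural libraries 53 of 62 cilia, 38 of 40 gland and mucus, 8 of 13 muscle and 11 of 14 neuron isogroups had a median of 0. Most members of each list thus added nothing to the sum in many libraries. The 62 cilia isogroups summed to a median of 0.318% in EFGB mesophotic (0.134% to 0.663%) and 0.304% in EFGB shallow libraries (0.00205% to 0.556%). The 13 muscle isogroups summed to 0.312% in mesophotic (0.0190% to 0.460%) and 0.342% in shallow libraries (0.000157% to 0.645%). The 40 gland and mucus isogroups summed to 0.103% in mesophotic and 0.0929% in shallow libraries, and the 14 neuron isogroups to 0.0254% in mesophotic and 0.0446% in shallow libraries. At PRTER and CBC, where the L6 median was lower in mesophotic libraries, the gland and mucus sum was lower there as well. It had a median of 0.0840% in PRTER mesophotic (0% to 0.578%) and 0.298% in PRTER shallow libraries (0.00121% to 1.84%), and of 0.0821% in CBC mesophotic (0.000886% to 0.907%) and 0.298% in CBC shallow libraries (0.00104% to 1.12%). At WFGB it was 0.107% in mesophotic and 0.0890% in shallow libraries. The cilia sum was also lower in mesophotic than in shallow libraries at PRTER (0.273% against 0.302%) and CBC (0.368% against 0.427%). The muscle sum went the other way, at PRTER (0.242% against 0.2004%) and CBC (0.231% against 0.192%). So did the neuron sum, at PRTER (0.0134% against 0.00467%) and CBC (0.00488% against 0.00448%). The ranges of the depths overlapped in each of these comparisons. Of 6 gland and mucus isogroups tested edgeR called 4 lower in mesophotic libraries for the mean over sites (15.9% of all isogroups called), with a median log2 difference of -1.21. It called 2 lower at PRTER (20.4% of all called) and 2 lower at CBC (28.3%). DESeq2 called 1, 2 and 2 of the 6 in these comparisons (15.4%, 20.6% and 30.7% of all). limma called 0, 1 and 0 (0.864%, 1.05% and 0.378% of all). The 2 nematocyte isogroups had a median of 0 in both depths at all 4 sites, so that stinging cells cannot be followed. The part of these cell types in the L6 share was not tested.

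Among shallow colonies the L6 share was ordered by site. The medians were 1.90% at WFGB, 2.27% at EFGB, 5.23% at PRTER and 6.56% at CBC. On the log2 scale PRTER exceeded WFGB by 1.38 ± 0.20 and CBC exceeded WFGB by 1.51 ± 0.22 (SE, adjusted permutation p = 6e-05 each over 12 pairs, from the smallest p that the resamples can give). PRTER exceeded EFGB by 0.94 ± 0.23 (adjusted permutation p = 0.00054) and CBC exceeded EFGB by 1.07 ± 0.24 (adjusted permutation p = 0.00016). The neighbours EFGB and WFGB (0.44 ± 0.20, adjusted permutation p = 0.0550) and CBC and PRTER (0.13 ± 0.25, adjusted permutation p = 0.674) did not differ past the threshold. Among mesophotic colonies EFGB exceeded WFGB by 0.90 ± 0.28 (adjusted permutation p = 0.00643) and the other 5 pairs did not pass. With all libraries PRTER exceeded WFGB by 0.65 (adjusted permutation p = 0.0368), and with at least 100000 host counts CBC lay below EFGB by -0.72 (adjusted permutation p = 0.0110). With the host total as a covariate the shallow differences of PRTER and CBC from WFGB were 0.74 and 0.85 and still passed, that of CBC from EFGB was 0.44 and passed (adjusted permutation p = 0.0479), and that of PRTER from EFGB was 0.25 and did not (adjusted permutation p = 0.248). With at least 100000 host counts neither passed, at 0.29 for CBC from EFGB (adjusted permutation p = 0.537) and 0.23 for PRTER from EFGB (adjusted permutation p = 0.652). The mesophotic difference of EFGB from WFGB was then 0.38 (adjusted permutation p = 0.0406). Site cannot be told apart from barcode run at PRTER and CBC. The title dates of PRTER and CBC occur at no other site, and coded PRTER titles give no date. Site and date cannot be told apart there either.

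Sets of libraries with different titles at 1 site and depth also differed. Coded titles hold no date, so these are differences between title groups and not between known dates. At WFGB shallow, 11 libraries with coded titles had a median of 3.18% (1.58% to 6.60%), against 1.58% in 22 X-14 libraries (0.892% to 3.87%), a log2 difference of 0.85 ± 0.22 (adjusted permutation p = 0.00488 over 8 pairs). With TMM scaling it was 0.75 and did not pass (adjusted permutation p = 0.0620). At EFGB shallow, 10 V-16 libraries had a median of 4.80% (2.30% to 12.1%), against 1.92% in 25 X-14 libraries (0.949% to 11.4%), a difference of 1.05 ± 0.34 (adjusted permutation p = 0.0106). At PRTER mesophotic, 19 coded libraries had a median of 4.54%, against 2.82% in 22 VIII-13 libraries, a difference of 1.11 ± 0.34 (adjusted permutation p = 0.00716). The X-14 libraries had median host totals of 56917 at WFGB and 47868 at EFGB, and the V-16 ones at EFGB had 185164. With TMM scaling the EFGB difference was 1.18 and did not pass (adjusted permutation p = 0.0620), with the host total as a covariate it was 0.48 and did not (adjusted permutation p = 0.102), and with host totals of at least 100000 alone it was -0.14.

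In the experiment transplants had the highest median L6 share at time 12. The 5 transplants with enough counts had L6 shares of 3.98%, 4.71%, 5.19%, 7.06% and 8.26%. The 6 mesophotic controls had 1.23%, 1.25%, 1.26%, 1.89%, 3.02% and 4.10%, and only the highest of them lay above the lowest transplant. The 9 shallow controls ran from 1.30% to 6.44% with a median of 3.47%, and overlapped both other arms. On the log2 scale transplants exceeded mesophotic controls by 1.49 ± 0.33 (SE), with an exact permutation p of 0.00595, the smallest this design gives, and an adjusted p of 0.0536 over 9 exact tests. Transplants exceeded shallow controls by 0.96 ± 0.38 (exact permutation p = 0.0405, adjusted 0.121). After scaling by TMM factors these differences were 2.14 and 1.40, both with an adjusted exact permutation p of 0.0429. Transplant libraries at time 12 had a median of 390284 host counts, against 49206 in mesophotic and 116697 in shallow controls. They also differed in their makeup. The symbiont gave a median of 0.550% of all counts in transplants (0.403% to 13.8%), against 11.1% in mesophotic (6.78% to 12.99%) and 8.71% in shallow controls (1.75% to 14.6%). Transplant libraries detected a median of 1633 host isogroups, against 4096 in mesophotic and 3221 in shallow controls. The 14 neuron isogroups summed to a median of 0.00282% in transplants (0% to 0.0843%), against 0.0388% in mesophotic (0% to 0.123%) and 0.0166% in shallow controls (0% to 0.0734%). Of the 14, 7 were at 0 in all 5 transplants, against 4 in all 6 mesophotic and 4 in all 9 shallow controls. A set of fewer libraries with fewer detected isogroups also leaves more members at 0. The gland and mucus sum was 0.189% in transplants (0.00187% to 0.284%), against 0.0480% in mesophotic (0.0210% to 0.0872%) and 0.175% in shallow controls (0.0536% to 0.814%). The cilia sum had a median of 0.404% in transplants, 0.347% in mesophotic and 0.224% in shallow controls. For muscle the medians were 0.247%, 0.225% and 0.127% in that order. The ranges of the arms overlapped in each of these lists. The part of symbiont share, detected isogroups and these cell types in the L6 difference was not tested. With the host total as a covariate the difference from mesophotic controls was 1.08 ± 1.01 (adjusted permutation p = 0.464). A sixth transplant, at 1.58%, had fewer than 20000 host counts and was left out of the tests.

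Baseline medians differed between the arms. At baseline the 7 colonies later transplanted had 1.12%, 1.37%, 1.74%, 1.87%, 2.09%, 3.00% and 3.11%, the 8 mesophotic control colonies ran from 1.87% to 12.5% with a median of 2.86%, and the 9 shallow control colonies from 1.89% to 5.86% with a median of 2.27%. Future transplants lay below mesophotic controls by -0.96 ± 0.33 on the log2 scale (exact permutation p = 0.0159, adjusted 0.0714). At time 6 the 8 transplants ran from 0.342% to 7.91% with a median of 4.77%, the 7 mesophotic controls from 2.26% to 7.20% with a median of 3.32%, and the 10 shallow controls from 0.874% to 17.4% with a median of 9.22%. The 3 arms overlapped at time 6. Of the 8 transplants labelled time 6, 2 from EFGB (4.09% and 7.44%) carry the title date IX-16 that all time 12 libraries carry, and every other time 6 library carries V-16. The baselines of the same 2 colonies (3.00% and 3.11%) carry V-16, and all other baselines have coded titles. The transplant baselines, and transplant changes from baseline to time 6, therefore mix title groups. Without these 2 time 6 libraries, transplants minus mesophotic controls at time 6 was -0.74 and transplants minus shallow controls -1.24 on the log2 scale (adjusted exact permutation p = 0.366 and 0.336), against -0.40 and -0.98 with them. Of 9 tests between arms, 3 had an unadjusted exact permutation p under 0.05 and 0 passed after adjustment.

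Colonies were followed over time within each arm. In transplants L6 was higher at time 12 than at baseline in 3 of 3 colonies (log2 difference 1.43 ± 0.17, exact sign-flip permutation p = 0.25, the smallest that 3 colonies can give) and higher than at time 6 in 4 of 4 (1.41 ± 0.76, exact permutation p = 0.125), or 0.70 without WFGB_68. It was higher at time 6 than at baseline in 5 of 7 (0.50 ± 0.59, exact permutation p = 0.422). In mesophotic controls it was lower at time 12 than at baseline in 6 of 6 colonies (-0.81 ± 0.16, exact permutation p = 0.0313, adjusted 0.141) and lower than at time 6 in 5 of 5 (-1.39 ± 0.36, exact permutation p = 0.0625), and was higher at time 6 than at baseline in 5 of 7 (0.37 ± 0.39, exact permutation p = 0.359). In shallow controls it was higher at time 6 than at baseline in 7 of 9 colonies (1.19 ± 0.41, exact permutation p = 0.0273, adjusted 0.141) and lower at time 12 than at time 6 in 6 of 9 (-0.97 ± 0.47, exact permutation p = 0.0781). From baseline to time 12 it was higher in 4 of 8 shallow controls (0.061 ± 0.23, exact permutation p = 0.852). Of these 9 tests 2 had an unadjusted p under 0.05 and 0 passed after adjustment over the exact permutation tests. Colony EFGB_57 was at 1.87% at baseline, 1.77% at time 6 and 4.71% at time 12, WFGB_54 at 2.09%, 6.61% and 7.06%, and WFGB_68 at 1.74%, 0.342% and 3.98%.

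**Figure D5:**
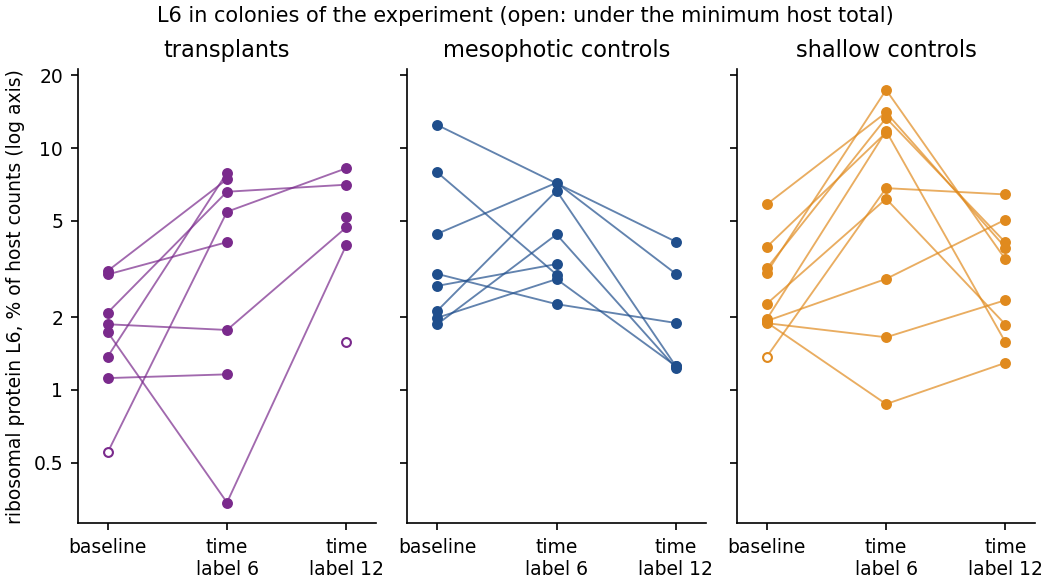
L6 as percent of host counts, on a log axis, at baseline, time label 6 and time label 12 in colonies of the experiment; lines join libraries of 1 colony, and open points had fewer than 20000 host counts. Transplants with enough counts end between 3.98% and 8.26%, 5 of 6 mesophotic controls end between 1.23% and 3.02%, and shallow controls reach up to 17.4% at time 6.

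The change of a colony was then compared between arms, a test added after the values had been seen. From baseline to time 12 transplants changed by 2.34 ± 0.14 more than mesophotic controls (3 against 6 colonies) and by 1.38 ± 0.41 more than shallow controls (3 against 8), each with an adjusted exact permutation p of 0.0429 over 9 tests. Mesophotic controls changed by -0.85 ± 0.27 against shallow controls (6 against 8 colonies, adjusted exact permutation p = 0.0357). From time 6 to time 12 transplants changed by 2.80 ± 0.92 more than mesophotic controls (3 against 5) and by 2.42 ± 0.97 more than shallow controls (4 against 9), each with an adjusted exact permutation p of 0.0429. The 3 tests from baseline to time 6 did not pass. With the change in host total as a covariate the first difference was 2.55 (adjusted permutation p = 0.00522), and the others were 1.23, -0.83, 1.73 and 1.43 and did not pass. These covariate fits had no site term and permuted residuals over colonies of both sites, whereas the exact tests permuted labels within sites. A smaller p in a covariate fit therefore cannot be read as a stronger difference. The covariate fit of 1.73 had 4 transplants, 1 more than its exact test, which kept to WFGB because EFGB had no mesophotic control at both times. Leaving out 1 colony at a time kept the direction of all 5. The adjusted exact permutation p stayed under 0.05 in 0 of 9 fits for the difference of 2.34 and 1 of 11 for 1.38. It did so in 4 of 14 for -0.85, 0 of 9 for 2.80 and 2 of 13 for 2.42. The highest value was 0.161. Fewer colonies leave an exact test fewer arrangements, so the smallest p it can give rises. The lowest adjusted exact permutation p was 0.06 for 2.34 and 0.06 for 2.80. Their counts of 0 therefore cannot decide whether the calls rest on 1 colony. The difference of 2.34 ran from 2.13 to 2.61 and that of 2.80 from 1.74 to 3.46. Without EFGB_194 the difference of -0.85 was -0.49, and without WFGB_68 that of 2.80 was 1.74.

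Host totals changed in the same colonies. From baseline to time 6 the L6 share and the host total moved in the same direction in 20 of 23 colonies (Pearson's r = 0.64, Spearman's rho = 0.66, permutation p = 0.0011 and 0.00085, and r = 0.58 without the 2 farthest). From baseline to time 12 they did so in 11 of 17 (r = 0.59, rho = 0.66, permutation p = 0.0109 and 0.00531, and r = 0.62 without the 2 farthest) and from time 6 to time 12 in 12 of 18 (r = 0.64, rho = 0.63, permutation p = 0.00397 and 0.00632, and r = 0.67 without the 2 farthest). Their part in the L6 changes was tested only by the covariate above. Colonies held their order weakly: L6 at baseline and at time 6 had rho = 0.56 over 23 colonies (adjusted permutation p = 0.0198) with r = 0.43 (adjusted permutation p = 0.129). Baseline and time 12 had rho = 0.18 over 17 colonies (r = 0.30, adjusted permutation p = 0.631 and 0.383), and times 6 and 12 had rho = 0.12 over 18 (r = 0.13, adjusted permutation p = 0.631 and 0.605).

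The count test over all host isogroups, in a fit that did not pair libraries of the same colony, called L6 in the shallow controls. By edgeR it was higher at time 6 than at baseline, with a log2 fold change of 2.12 ± 0.50 (adjusted p = 0.0146), where 3.97% of the 3580 isogroups tested were called, and lower at time 12 than at time 6, at -1.79 ± 0.49 (adjusted p = 0.0182), where 5.34% were called. In transplants the value at time 12 against baseline was 2.30 ± 0.61 (adjusted p = 0.0558), just outside the threshold, where 0.168% were called. At time 12 L6 in transplants was 2.00 ± 0.63 above mesophotic controls (adjusted p = 0.0664, 0.112% called) and 1.30 ± 0.56 above shallow controls (adjusted p = 0.0920, 8.3% called).

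With the colony as replicate block, edgeR called the transplant change at time 12 against baseline, 2.66 ± 0.56 (adjusted p = 0.00956), as 1 of 3 isogroups called among 7875 (0.0381%). The block kept the shallow change at time 6 against baseline, 1.99 ± 0.41 (adjusted p = 0.00361, 0.0635% called), and did not call that at time 12 against time 6, -1.51 ± 0.41 (adjusted p = 0.180). With the host total as a covariate and no block the shallow value at time 6 against baseline was 0.59 (adjusted p = 0.461) and that at time 12 against time 6 was -1.22 (adjusted p = 0.0211).

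Among the other cytosolic ribosomal proteins S8, the nearest to L6 in natural colonies, had the smallest p of the higher members in transplants at time 12, with a log2 fold change of 3.15 ± 1.06 over mesophotic controls (edgeR adjusted p = 0.0664) and 3.09 ± 0.99 over baseline (edgeR adjusted p = 0.0558). It was 1.85 ± 0.78 in shallow controls at time 6 over baseline (edgeR adjusted p = 0.144). The 54 members tested had a median log2 difference of 0.80 in transplants at time 12 against mesophotic controls, against -0.073 over all isogroups tested, and of 0.80 at time 12 against baseline, against 0.0018. In shallow controls at time 6 against baseline the list median was 0.41, against -0.76. edgeR called 0 of the 54 in each of the 5 comparisons named here. In transplants at time 12 against mesophotic controls 5 had an unadjusted p under 0.05 (30.3% of all isogroups did), and DESeq2 called 6 (16.3% of all) and limma 0 (0.0279%). Against shallow controls 3 had one (32% of all), and DESeq2 called 4 (19.2%) and limma 0 (0.0279%). In transplants at time 12 against baseline 5 had one (32.6% of all), and DESeq2 called 5 (19.6%) and limma 0 (1.79%). In shallow controls at time 6 against baseline 7 had one (22.5% of all), and DESeq2 called 12 (9.27%) and limma 1 (2.29%). At time 12 against time 6 there 7 had one (20.7% of all), and DESeq2 called 7 (9.33%) and limma 0 (0.559%).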

How the data were processed

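Tag counts were used as deposited by the authors: raw counts of 3' tags per isogroup, whole numbers, not normalized. Isogroup names came from the deposited lookup table. Not given in the sources used here are the aligner, duplicate removal and assignment of shared tags. Groups came from the labels. L6, its companions and the lists were chosen with earlier results of these data known.

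The L6 share is its percent of host counts. Tests used log2 of the percent after adding 0.5 to the count, in libraries with at least 20000 host counts. They were 2-sided permutation tests (100000 resamples, exact in small groups), within sites for the exact arm and change tests. The host total fits of the experiment permuted residuals over both sites, with a site term for arms and none for changes. Benjamini-Hochberg adjustment was made in families of 5 depth tests, 12 site pairs, 8 pairs of title groups, 9 arm tests, 9 time tests and 9 change tests. edgeR 4.0.16 (TMM, filterByExpr, robust quasi-likelihood) was fitted over all host isogroups and adjusted over all of them, with a threshold of 0.05. DESeq2 1.42.0 and limma 3.58.1 were alternatives. Covariates, values within title groups and change tests were added after seeing the data. Colonies were paired by title tags, and barcode runs were inferred from barcodes, so both are readings of the labels. Named isogroups are L6, the 10 most abundant and the 5 most abundant numbered ribosomal proteins. Also named are the ribosomal protein with the smallest p in each direction, and the 5 most and 3 least like L6. S27A at WFGB and Mcavernosa01208 were named after their values were seen. Wilson intervals cover counting error alone. The edgeR step was tested on simulated counts with known changes.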

Additional observations from a re-analysis of the deposited data

Results flagged for a closer look

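The mesophotic minus shallow difference in the L6 share differed between the 4 sites (permutation F = 7.30, p = 8e-05), with values above 0 at WFGB and EFGB and below 0 at PRTER and CBC. Without X-14 libraries F was 1.74.

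In the experiment 5 differences between arms in the change of a colony passed adjustment. From baseline to time 12, transplants minus mesophotic controls gave 2.34, transplants minus shallow controls 1.38 and mesophotic minus shallow controls -0.85. From time 6 to time 12, transplants minus mesophotic controls gave 2.80 and transplants minus shallow controls 2.42. These tests were added after the values had been seen, and with 3 or 4 transplants each. In 7 groups of a size that allows a check for an outlying library, 0 were flagged.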

How the results depend on the processing

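Values are log2 differences, mesophotic minus shallow for depth, and the cause of a change with a setting was not tested. Averaged over sites, the difference in the L6 share turned below 0 with all libraries (-0.0195), host and symbiont counts as denominator (-0.0286), TMM scaling (-0.0262), RLE scaling (-0.0623), X-14 libraries left out (-0.247), the 3 highest libraries left out (-0.00611), and the host total (-0.0276), detected isogroups (-0.167) or both (-0.119) as covariates, and passed the threshold in none of 14 settings (adjusted permutation p 0.155 to 0.961). Values within runs or title groups, and those adjusted for run, belong to no family of tests and were judged by an unadjusted permutation p. At WFGB it was -0.164 without X-14 and -0.333 among coded titles, and passed without baseline libraries (0.605). Adjusted for barcode run, the WFGB difference was 0.458 and passed by its unadjusted permutation p alone. At EFGB the difference no longer passed at 100000 host counts (0.487), with RLE scaling (0.669), without X-14 (0.304), with the host total (0.352), detected isogroups (0.0280), both (0.0671) or the symbiont share (0.661) as covariate, within runs 5 (0.0499) and 7 (0.362) and among coded titles (1.07), and was -0.402 in V-16. At PRTER it passed with host and symbiont counts (-0.705), TMM (-0.893) and without the 3 highest libraries (-0.652), was -0.580 and -0.551 within runs 2 and 3, and 0.0675 among coded titles. F for depth by site was 1.74 without X-14 and 2.31 with both covariates.

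Among sites, mesophotic PRTER minus WFGB was -0.137 at 100000 host counts and -0.188 with the host total as covariate, mesophotic CBC minus WFGB -0.113 at 100000, mesophotic CBC minus PRTER -0.0524 with all libraries, and shallow CBC minus PRTER -0.123 with TMM. V-16 minus coded in EFGB mesophotic libraries was 0.0333 with the host total as covariate, and V-16 minus X-14 in EFGB shallow ones -0.141 at 100000. The Spearman correlation of the L6 share with the host total in WFGB shallow libraries was 0.632 with TMM.

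By edgeR the mean over sites was -0.0813 with RLE, -0.167 by limma with detected isogroups, -0.302 with detected isogroups, -0.119 with the host total, -0.0735 without X-14 and -0.144 with barcode run as a term. WFGB lost its call with RLE (0.274), no filter (1.24), limma (0.365), limma with detected isogroups (0.0413), detected isogroups (0.549), host total (0.152), the site alone (0.721), no X-14 (0.459), 100000 host counts (0.920) and run as a term (1.11). CBC lost it with RLE (-0.655), no filter (-1.02), limma (-0.567), limma with detected isogroups (-0.532), host total (-0.344), the site alone (-0.706), no X-14 (-0.968) and 100000 host counts (-0.766). EFGB passed by limma (0.830) and PRTER by DESeq2 (-1.19). F for depth by site was 2.37 with the host total, 3.32 without X-14 and 2.56 at 100000, none past the threshold.

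In the experiment, transplants at time 12 passed against mesophotic (2.14) and shallow (1.40) controls with TMM, and mesophotic minus shallow at baseline was -0.0638 at WFGB alone. The change from baseline to time 6, transplant minus mesophotic, was -0.139 with the change in host total as covariate. edgeR gave transplant minus mesophotic at time 6 as 0.209 with RLE, 0.296 by DESeq2 and 0.0741 with the host total. With the host total it also gave mesophotic minus shallow as -0.00718 at baseline and 0.0988 at time 12, mesophotic time 6 minus baseline as -0.367 and shallow time 12 minus baseline as -0.622. Transplant time 12 minus baseline passed with RLE (1.68) and DESeq2 (2.31), time 6 minus baseline passed with DESeq2 (2.35), and time 12 minus 6 was -0.0395 by DESeq2. Shallow time 6 minus baseline did not pass with no filter (2.22), limma (1.18) or the host total (0.594), nor time 12 minus 6 with no filter (-1.83) or limma (-1.04).

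With colonies paired by title tag, the colony as replicate block gave 2.66 for transplant time 12 minus baseline, which then passed, and -1.51 for shallow time 12 minus 6, which then did not.

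Leaving out 1 library or colony gave ranges of -1.15 to -0.763 for transplant minus mesophotic at baseline (called without EFGB mesophotic replicate 7), -0.639 to 0.0963 at time 6 (above 0 without WFGB transplant replicate 1) and, by edgeR, -0.482 to 0.239 at time 6. Shallow time 12 minus baseline ran from -0.129 (without EFGB_189) to 0.155. The change from baseline to time 6, transplant minus mesophotic, ran from -0.152 (without WFGB_53) to 0.837, and the change from time 6 to 12, mesophotic minus shallow, from -0.767 to 0.10 (without WFGB_121). Both edgeR calls in shallow controls held in 19 of 19 such fits, which did not pair libraries of the same colony.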
